A study of Bos taurus with 5 samples.

Results

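The genes described here are 10 heat shock chaperones and co-chaperones of the cytosol and the mitochondria, HSPE1, HSPD1, HSPA8, HSPA1A, HSPH1, HSP90AA1, HSP90AB1, DNAJB1, DNAJA1 and BAG3. They were chosen by gene symbol from the table of 27607 genes, and each symbol matched 1 entry. Their expression was measured by RNA sequencing in 5 libraries of cattle (Bos taurus). Each carries a tissue label, which is brain, skin, lung, heart or limb. Treatment, time, age, sex, strain and the number of cells or animals in a library are not stated in the labels. With 1 library per label there was no replicate, so no value below has an error or a p-value, and no order of libraries can be set against a replicate spread.

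Chaperones bind unfolded or partly folded proteins and help them to fold, assemble or be degraded. HSP70 proteins do this in cycles of ATP hydrolysis that J-domain proteins start and nucleotide exchange factors end, and HSP90 proteins act later on clients such as kinases and steroid receptors. In mitochondria, HSPD1 (HSP60) forms a folding chamber that HSPE1 (HSP10) closes as a lid. Some chaperone genes, such as HSPA8 and HSP90AB1, are expressed in nearly every cell, while HSPA1A, DNAJB1, HSPH1, HSP90AA1 and BAG3 are known targets of the heat shock factor HSF1 and are induced by heat and other protein-damaging stress.

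The deposited values were taken as FPKM, fragment numbers corrected for transcript length and for the total of fragments. On that reading, levels of different genes are on 1 scale per length. No source names the unit, and uneven amplification or coverage between genes was not examined, which limits comparisons of 1 gene with another. Each library held between 5109 and 6634 genes above 0. A level of few FPKM rests on few reads. From the spacing of low values, 1 read was worth a median of about 7.33 FPKM under the brain label, a rough figure that falls with transcript length, and a gene listed at 0 can be expressed below what a library could show. Of short lists of defining markers, 0 of 12 brain entries, 1 of 11 skin entries, 1 of 12 lung entries, 2 of 12 heart entries and 3 of 12 limb entries were above 0 under their own label. SNAP25 of neurons, KRT14 of keratinocytes, SFTPC of alveolar cells, TNNT2 of cardiomyocytes and MYOD1 of muscle were each listed at 0 there. The limb entries above 0 there, ACTA1 at 37.6 FPKM, RUNX2 at 29.2 and TNNT1 at 18.1, were highest under the limb label. Those above 0 under the skin, lung and heart labels (KRT10, PDPN, ACTC1 and FABP3) were each highest under another label. Some markers were above 0 under another label alone, such as SFTPC at 34.2 FPKM under the limb label. Under the lung label the skin marker KRT5 was at 51 FPKM and the brain marker GAD2 at 10.45 FPKM. The libraries are therefore named by label only.

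The 10 genes fell into an abundant and a scarce class. HSPE1, HSPD1, HSPA8, HSP90AA1, HSP90AB1 and DNAJA1 were above 0 in all 5 libraries, as were 30.0% of the 8694 genes with mean levels of 1 FPKM or more. Their means lay between 303 and 1478 FPKM, and together they made up 97.5% to 99.8% of the summed FPKM of the 10. HSPA1A, HSPH1, DNAJB1 and BAG3 had means between 5.83 and 27.2 FPKM, and each was listed at 0 in at least 1 library, as were 86.9% of genes with means from 1 to below 50 FPKM. Both classes had high values under the lung label. That library had the highest value of 8 of the 10 genes and was above the brain-, heart- and limb-labelled libraries for all 10, with HSPD1 and HSPH1 highest under the skin label. Of the 8694 genes, 24.1% were highest under the lung label, 19.8% under the skin label, and 29.3% were higher under the lung label than in those 3 libraries. Among 1358 genes with means of 100 FPKM or more, 28.6% were highest under the lung label and 38.7% were higher there than in the 3 libraries, and of the 6 abundant chaperone genes 5 and 6 were. As the number of cells in a library is not known, a smaller number of expressing cells and less RNA per cell cannot be told apart.

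**Figure D1:**
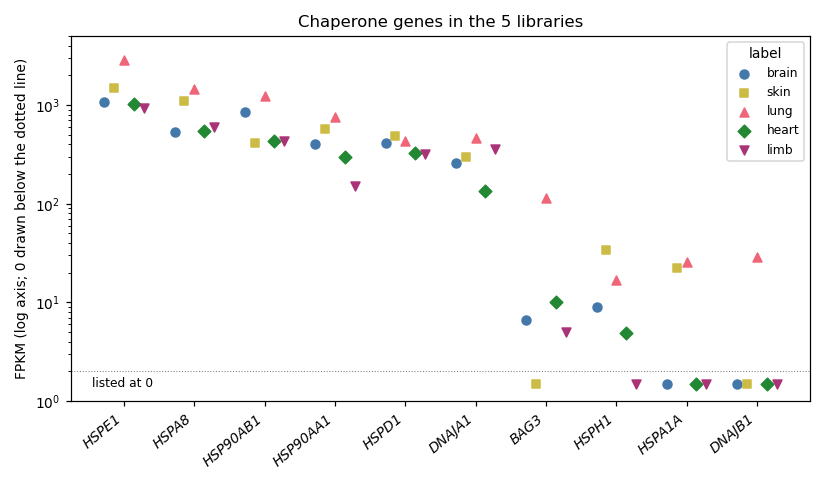
FPKM of the 10 chaperone genes on a log axis, 1 point per library, with genes ordered by mean and values of 0 drawn below the dotted line. The 6 genes on the left lie between 135 and 2879 FPKM in all 5 libraries, and the 4 on the right are listed at 0 in 1 to 4 of them.

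The mitochondrial pair was described first. HSPE1 stood at 1065 FPKM under the brain label, 1474 under the skin label, 2879 under the lung label, 1034 under the heart label and 937 under the limb label. It was the highest of the 10 genes in every library, and under the lung label it ranked 68 from the top among 5991 genes above 0. Its partner HSPD1 was nearly level, at 413 FPKM under the brain label, 482 under the skin label, 435 under the lung label, 326 under the heart label and 318 under the limb label. The highest and lowest libraries differed 1.52-fold for HSPD1, the smallest ratio among the 10 genes, and 3.07-fold for HSPE1. The HSPE1 level was therefore 2.58 to 3.17 times that of HSPD1 in 4 libraries and 6.61 times under the lung label. In a reference gene table of a later cattle assembly, used only for names and neighbours, HSPD1 and HSPE1 are adjacent genes, and in mammals they are known to be transcribed from a shared promoter region in opposite directions.

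Within the HSP70 system, HSPA8 is the constitutive HSP70 of the cytosol and HSPA1A the stress-inducible one. HSPA8 was listed at 531 FPKM under the brain label, 1106 under the skin label, 1465 under the lung label, 552 under the heart label and 603 under the limb label. The skin- and lung-labelled values lay above the other 3, which lay between 531 and 603 FPKM. HSPA1A stood at 22.5 FPKM under the skin label and 25.5 FPKM under the lung label and was listed at 0 in the other 3. It was thus seen in the same pair of libraries in which HSPA8 was highest, where HSPA8 exceeded it 49.1-fold and 57.4-fold. HSPA1A has near-identical copies in mammals, HSPA1B has no entry of its own in the table, and how the authors' counting divided shared reads is not stated, so its level is uncertain.

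HSPH1, an HSP110 protein that exchanges the nucleotide of HSP70, was scarce. It was listed at 8.97 FPKM under the brain label, 33.9 under the skin label, 16.7 under the lung label and 4.92 under the heart label, and at 0 under the limb label. As for HSPA1A, the skin- and lung-labelled libraries were the highest pair, here with the skin label first. HSPA8 exceeded HSPH1 between 32.6-fold under the skin label and 112-fold under the heart label.

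Of the J-domain proteins, which hand substrates to HSP70 and stimulate its ATPase, DNAJA1 was abundant and DNAJB1 scarce. DNAJA1 was at 261 FPKM under the brain label, 296 under the skin label, 462 under the lung label, 135 under the heart label and 360.1 under the limb label. The limb-labelled library was second here, while for HSPE1, HSPD1 and HSP90AA1 it was the lowest of the 5. DNAJB1, a stress-inducible J protein, was at 29.2 FPKM under the lung label and listed at 0 in the other 4.

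BAG3, a co-chaperone that releases substrates from HSP70 and links it to small heat shock proteins and autophagy, had the steepest profile. It stood at 114 FPKM under the lung label, against 10.1 under the heart label, 6.67 under the brain label and 5.05 under the limb label, and was listed at 0 under the skin label. The lung-labelled value was 11.3 times the next highest. The skin-labelled library therefore held HSPA1A and HSPH1 but neither BAG3 nor DNAJB1 above 0, and the lung-labelled library was the 1 library in which all 4 scarce genes were above 0. As DNAJB1 was above 0 there alone, no other library could hold all 4. The share of equally scarce genes above 0 under the lung label was not worked out.

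The HSP90 pair in the cytosol comprises the inducible HSP90AA1 and the constitutive HSP90AB1. HSP90AA1 was at 403 FPKM under the brain label, 574 under the skin label, 751 under the lung label, 299.8 under the heart label and 153 under the limb label. Its highest and lowest libraries differed 4.92-fold, the largest ratio among the 6 abundant genes. HSP90AB1 stood at 854 FPKM under the brain label, 410.5 under the skin label, 1239 under the lung label, 436.6 under the heart label and 436.8 under the limb label. The brain-labelled library was second for this gene, and the skin-labelled library, which was second for HSP90AA1, had the lowest value. HSP90AB1 was 1.46 to 2.86 times HSP90AA1 in 4 libraries and 0.716 times under the skin label, the only library in which the inducible gene was the higher of the pair.

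**Figure D2:**
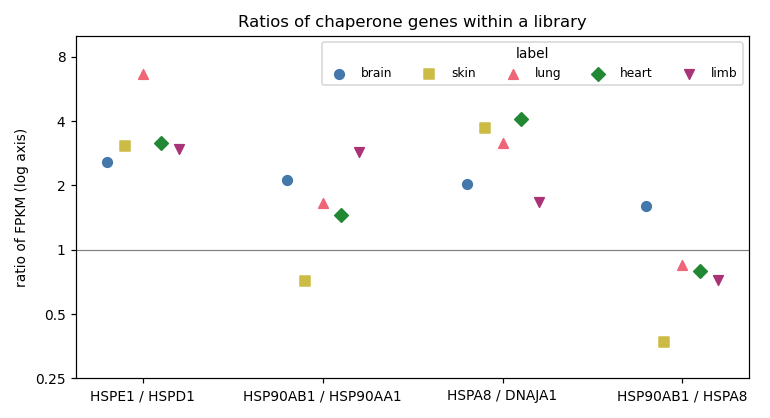
Ratio of FPKM between chaperone genes of the same library on a log axis, 1 point per library, with the grey line at a ratio of 1. The HSPE1 to HSPD1 ratio is highest under the lung label at 6.61, and the HSP90AB1 to HSP90AA1 ratio is below 1 under the skin label alone, at 0.716.

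These ratios come from genes of the same library and do not depend on the library total. The HSPA8 to DNAJA1 ratio ran from 1.67 under the limb label to 4.08 under the heart label. HSP90AB1 was 1.61 times HSPA8 under the brain label and 0.371 times under the skin label, with the other 3 between 0.724 and 0.846. The order of the abundant genes accordingly differed by label. HSPE1 was first in all 5 libraries. HSPA8 was second in 4 of them, while HSP90AB1 held that place under the brain label. HSPD1 was in place 4 under the brain, skin and heart labels, in place 5 under the limb label and in place 6 under the lung label.

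Summed over the 10 genes, the level was 3543 FPKM under the brain label, 4399 under the skin label, 7416 under the lung label, 2799 under the heart label and 2812 under the limb label. This was 0.330%, 0.377%, 0.632%, 0.254% and 0.250% of the summed FPKM of each. The lung-labelled share was the highest and the heart- and limb-labelled shares were close to each other. HSPE1 alone made up 30.1% of the 10 genes' sum under the brain label and 38.8% under the lung label.

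Each library was then set against the other 4 by the difference in log2(FPKM + 1) from their mean. Adding 1 shrinks ratios between low values above 0. Where a scarce gene is listed at 0, the size of the difference depends on the value added. That value of 1 is below the rough 7.33 FPKM of 1 read under the brain label, so such differences can be too large. In the lung-labelled library all 10 differences were above 0, with a median of 1.33 and a range from 0.20 for HSPD1 to 4.92 for DNAJB1. Over all 8694 genes the median for this library was -0.16, and 47.8% of genes were above 0, or 58.1% of the 1358 genes with means of 100 FPKM or more. The skin-labelled library had 7 of the 10 above 0, against 39.5% of all genes, and a median of 0.28, against -0.73 over all genes. Its exceptions were HSP90AB1 at -0.71, DNAJB1 at -1.23 and BAG3 at -3.96. For the brain label 4 of the 10 were above 0, against 52.9% of all genes, and the median was -0.21, against 0.15. HSP90AB1 was the furthest above 0 there, at 0.61. In the heart-labelled library 1 of the 10 was above 0, BAG3 at 0.37, where 49.7% of all genes were, and the median was -0.59 against -0.01 over all genes. The limb-labelled library likewise had 1 of the 10 above 0, DNAJA1 at 0.45, where 40.6% of all genes were, and a median of -0.68, close to the -0.67 over all genes. Because every library enters the mean of the others, low values elsewhere in part follow from the high lung-labelled ones.

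**Figure D3:**
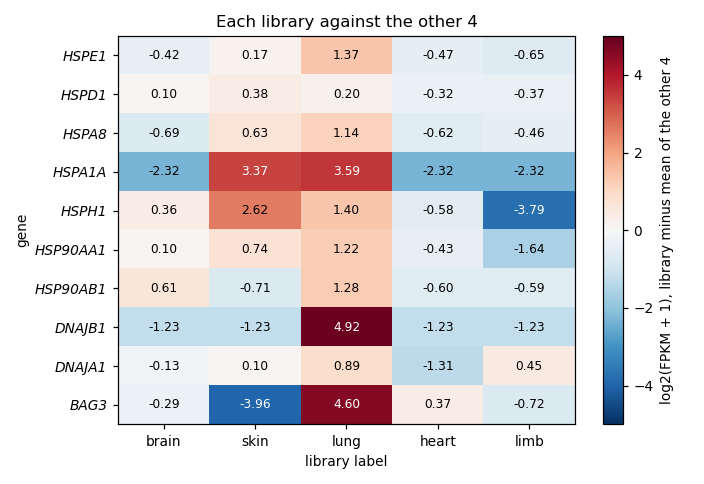
Difference in log2(FPKM + 1) between each library (columns) and the mean of the other 4, for the 10 genes (rows), with red above and blue below 0. The lung-labelled column is above 0 in all 10 rows, from 0.20 to 4.92, and the skin-labelled column joins it for HSPA1A and HSPH1 but not for BAG3, DNAJB1 or HSP90AB1.

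Differences of at least 4-fold between (FPKM + 1) values, where the higher value reached 10 FPKM, were counted next. Between the highest and lowest library 5 of the 10 genes passed, HSPA1A, HSPH1, HSP90AA1, DNAJB1 and BAG3, against 72.3% of the 8694 genes. Of the 6 abundant genes 1 passed, HSP90AA1, where 39.2% of genes with means of 100 FPKM or more did. Just below the limit lay DNAJA1 with a ratio of 3.40 and HSPE1 with 3.07. All 4 scarce genes passed, where 78.6% of genes with a mean from 1 to below 50 FPKM did, so passing was common at that level. Without the lung-labelled library 3 of the 10 passed, HSPA1A, HSPH1 and BAG3, and without the limb-labelled library the call of HSP90AA1 was lost, which left 4. Without the lung label, BAG3 passed on 10.06 FPKM under the heart label, just above the minimum. BAG3 and DNAJB1 were at least 4-fold above each of the other libraries under the lung label, which held for 5.08% of all genes. In each of the remaining 4 libraries 0 of the 10 were 4-fold above or below all others. Of all genes, 3.93% were above and 0.610% below under the brain label, 3.91% and 3.13% under the skin label, 4.23% and 0.966% under the heart label, and 3.61% and 2.74% under the limb label. In the lung-labelled library 0 of the 10 were 4-fold below the rest, against 2.17% of genes. As all 10 were higher there than under the brain, heart and limb labels, that 0 was fixed by those values. With shares this small, a count of 0 among 10 genes says little for the other libraries too.

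**Figure D4:**
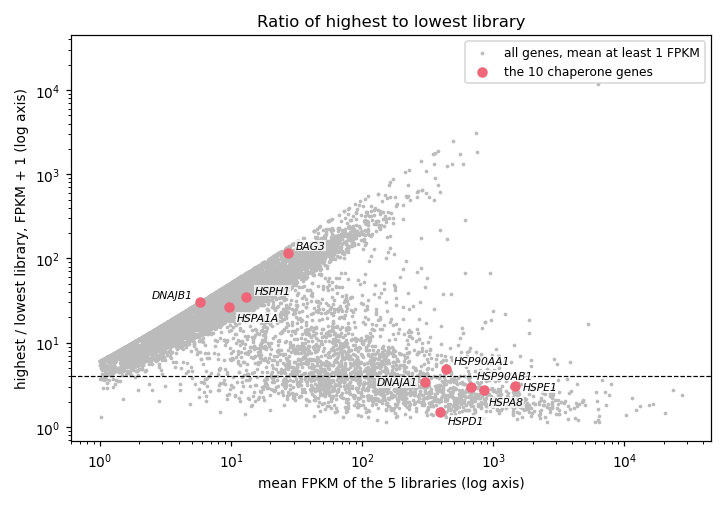
Ratio of the highest to the lowest library on FPKM + 1 against mean FPKM, both on log axes, for 8694 genes (grey) and the 10 chaperone genes (red), with the dashed line at a ratio of 4. HSPH1, HSPA1A, DNAJB1 and BAG3 lie in the upper band of genes with a value of 0 in some library, and HSPD1 is lowest at 1.52.

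Over the 10 pairs of libraries, 19 of 100 gene and pair combinations passed the same 4-fold limit, against 31.0% over all genes. Of the 6 abundant genes HSP90AA1 alone passed, between the lung and limb labels alone, and the other calls were of scarce genes. The 31.0% is not matched for level. Between the highest and lowest library 39.2% of genes with means of 100 FPKM or more passed, against 78.6% with means from 1 to below 50 FPKM. The lung and limb labels had the most, with HSPA1A, HSPH1, HSP90AA1, DNAJB1 and BAG3 higher under the lung label, where 19.5% of all genes were, and 0 of the 10 higher under the limb label. HSPA1A, DNAJB1 and BAG3 were also 4-fold higher under the lung label than under the brain label, as 14.1% of genes were, and than under the heart label, as 15.5% were. Compared with the skin label, DNAJB1 and BAG3 were higher under the lung label, as were 19.0% of genes. The skin label exceeded the brain label in HSPA1A (11.7% of genes), and both the heart label (13.0%) and the limb label (15.9%) in HSPA1A and HSPH1, while BAG3 was higher under the heart than the skin label (19.6%). BAG3 passed there at 10.06 FPKM under the heart label, just above the minimum of 10 FPKM, against 0 under the skin label. Among the brain-, heart- and limb-labelled libraries 0 of the 10 genes passed in any pair, where 24.5% of all genes passed between the brain and heart labels and 29.4% in each of the other 2 pairs. HSPA1A and DNAJB1 were listed at 0 under the brain, heart and limb labels and could not pass. HSPH1, at 8.97 FPKM under the brain label, 4.92 under the heart label and 0 under the limb label, was under the minimum of 10 FPKM in each. The shares are over genes of all levels.

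The other HSP70 proteins and regulators of the cytosol had a median difference of -0.03 under the lung label and 1.08 under the skin label. Of 15 entries, 12 were above 0 in some library and 2 were highest under the lung label, the ubiquitin ligase STUB1 (CHIP), which marks chaperone clients for degradation, and HSPA4L, an HSP110 protein. STUB1 stood at 312 FPKM under the lung label and at 61.9 to 141 FPKM in the other 4, and HSPA4L at 39.4 FPKM there and 0 elsewhere. ST13, which stabilises substrate-bound HSP70, was highest under the skin label at 170.2 FPKM and ranged down to 79.4 FPKM. The HSP110 protein HSPA4 was at 65.0 FPKM under the heart label and 3.61 FPKM under the limb label. Other BAG proteins did not share the profile of BAG3. BAG1 was listed at 61.3 FPKM under the brain label and 1.85 FPKM under the lung label, and BAG2, an inhibitor of STUB1, at 0 under the lung and skin labels and 94.0 FPKM under the limb label. HSPA1L, the testis HSP70 whose gene neighbours HSPA1A, was listed at 0 in all 5.

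Among 24 entries of other J proteins of the cytosol and nucleus, 18 were above 0 in some library and 7 were highest under the lung label. DNAJA2, a close relative of DNAJA1, stood at 190.5 FPKM under the lung label, 116 under the brain label and 10.3 under the skin label. DNAJC9, which acts as a histone chaperone, was at 178 FPKM under the lung label, 25.4 and 24.6 FPKM under the brain and heart labels and listed at 0 in the other 2. DNAJC8, the most abundant of the list, varied little outside the heart-labelled library, from 196 to 232 FPKM, and was at 92.5 FPKM there. In contrast, DNAJB4 was highest under the heart label at 69.3 FPKM and listed at 0 under the lung label, and DNAJB12 was at 77.6 FPKM under the skin label and 0 under the lung label. The list's median difference under the lung label was 0.33, below that of the 10 genes.

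Co-chaperones of HSP90 were mixed in their profiles. Of 20 entries, 18 were above 0 in some library, 7 were highest under the lung label and 7 under the skin label, and the median differences there were 1.16 and 0.94. PTGES3 (p23), which stabilises the closed form of HSP90, was at 758 FPKM under the lung label, 536 under the skin label, 338 under the brain label, 249 under the limb label and 105 under the heart label. STIP1 (HOP), which bridges HSP70 and HSP90, was at 172 and 149 FPKM under the lung and skin labels, 63.6 and 57.1 under the brain and heart labels and 0 under the limb label. The limb-labelled library, lowest for HSP90AA1, was also listed at 0 for CDC37, the adaptor for kinases, which reached 109 FPKM under the skin label. CACYBP was highest under the skin label at 726 FPKM. AHSA1, which activates the HSP90 ATPase, ranged from 58.1 to 184 FPKM. Other entries were highest under another label, or were low under the lung or skin label. PPID, a cyclophilin that binds HSP90, was highest under the brain label at 174 FPKM, with 169.6 under the lung label and 72.5 under the skin label. The phosphatase PPP5C was at 27.4 FPKM under the heart label, 2.39 under the lung label and 0 under the skin label. TOMM34 was at 30.3 FPKM under the brain label, 11.4 under the lung label and 0 under the skin label, UNC45A was at 12.5 FPKM under the brain label and 0.43 under the lung label, CDC37L1 was at 1.08 FPKM under the lung label and 38.9 under the skin label, and NUDC was at 105 and 2 FPKM under those labels. Over the list 66.7% of tested entries passed the 4-fold limit between libraries, against 72.3% of all genes.

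The remaining mitochondrial chaperones and quality-control proteases had 7 of 16 entries highest under the lung label, with a median difference of 1.36 there and 1.04 under the heart label. The lung-labelled median moved with the value added, to 1.65 with 0.1 and 0.998 with 10, as scarce entries were listed at 0 in some libraries. The scarce LONP1 was at 9.57 FPKM under the lung label, 39.4 under the skin label and 0 under the brain and limb labels. HSPA9 (mortalin), the HSP70 of the matrix, was at 271 FPKM under the brain label, 184 under the heart label, 151 under the limb label and 145 under the lung label but at 7.97 FPKM under the skin label, the library in which HSPD1 was highest. Its exchange factor GRPEL1 was highest under the skin label at 285 FPKM and lowest under the limb label at 98.9 FPKM. The J protein DNAJC19 was at 444 FPKM under the lung label and 74.7 to 265 FPKM in the other 4. TRAP1, the mitochondrial HSP90, was scarce, at 15.9 FPKM under the lung label, 5.64 under the brain label and 0 in the other 3 libraries.

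Of the heat shock factors, HSF1 was listed at 53.5 FPKM under the lung label, 16.8 under the brain label and 2.67 under the heart label and at 0 under the skin and limb labels. HSF2 was instead highest under the skin label at 80.0 FPKM and listed at 0 under the lung label. HSBP1, a small protein that binds HSF1, has 2 entries, of which 1 was listed at 0 throughout and the other ranged from 201 FPKM under the limb label to 529 FPKM under the skin label. HSF1 activity is regulated after translation, and these levels are of RNA only.

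Against other chaperone families the lung label had unlike ranks. The TRiC chaperonin, which folds actin and tubulin in the cytosol, had 6 of 8 subunit genes highest under the lung label, with a median difference of 0.67. CCT2 was at 827 FPKM there and 140.3 to 372 FPKM elsewhere, CCT3 had the smallest ratio between libraries at 1.97 on FPKM + 1, and CCT6A, at 686 FPKM, was highest under the skin label. Chaperones of the endoplasmic reticulum had 1 of 17 highest under the lung label and a median difference of -0.61 there. HSPA5 (BiP), the HSP70 of that compartment, was at 84.3 FPKM under the lung label, against 2032 under the brain label, 1488 under the heart label, 847 under the limb label and 542 under the skin label. HSPA5 thus had its lowest level where HSPA8 had its highest. DNAJB9, a J protein partner of BiP, was listed at 0 under the lung and skin labels and at 84.9 to 267 FPKM in the other 3, and CALR varied least, between 160.0 and 261 FPKM. Of the small heat shock proteins, 1 of 10 entries was highest under the lung label. HSPB1 was at 1815 FPKM under the skin label, 1430 under the limb label and 1424 under the lung label, and CRYAB at 3143 FPKM under the skin label against 455 under the lung label. HSPB6 had the smallest ratio among the 6 entries above 0 in some library, 4.33 on FPKM + 1, and HSPB11, an intraflagellar transport protein despite its name, was listed under the heart label alone, at 82.4 FPKM.

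**Figure D5:**
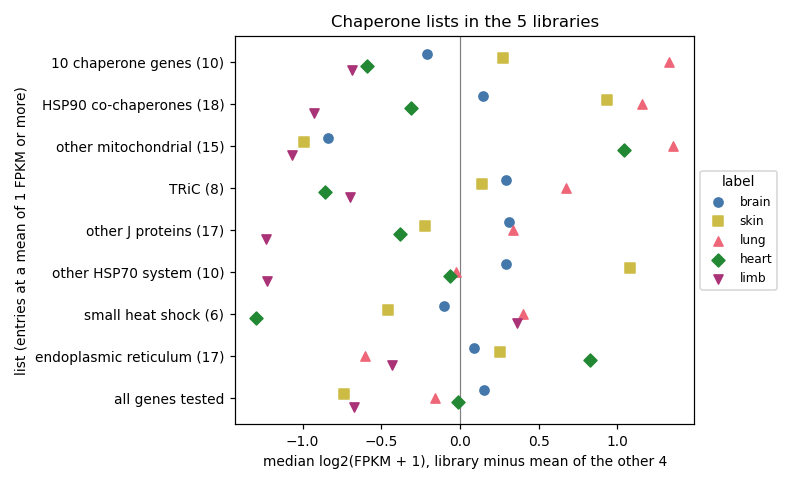
Median difference in log2(FPKM + 1) between each library and the mean of the other 4, for 8 chaperone lists and for all genes tested, 1 point per library. The lung-labelled point is rightmost for the 10 genes (1.33), HSP90 co-chaperones (1.16), other mitochondrial chaperones (1.36) and TRiC (0.67), by a small margin for other J proteins (0.33) and small heat shock proteins (0.40), and leftmost for the endoplasmic reticulum list (-0.61). With a pseudocount of 10 the value for other mitochondrial chaperones is 0.998.

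Other genes that varied between these libraries are given beside the chaperones. Their lists were chosen with earlier results of these data known. Among the 27607 genes of the series, 5991 were above 0 under the lung label and 5109 under the skin label. Under the brain, heart and limb labels 6599, 6634 and 5319 were. Of 14 replication and mitosis genes, 13 were above 0 under the lung label and 10 under the skin label, against 3 under the brain label and 2 in each of the heart- and limb-labelled libraries. Their summed level was 1627 FPKM under the lung label and 1362 under the skin label and between 30.02 and 131 FPKM in the other 3. MKI67 was at 3.44 FPKM under the lung label and 0.54 FPKM under the skin label and 0 elsewhere. The skin- and lung-labelled libraries, high for these genes, also held the 2 highest values of 6 of the 10 chaperone genes (HSPE1, HSPD1, HSPA8, HSPA1A, HSPH1 and HSP90AA1). Of all genes 10.2% had their 2 highest values in these libraries, and of genes with means of 100 FPKM or more 20.3%, where 4 of the 6 abundant chaperone genes did. The part of cell division in the chaperone levels was not tested. Immediate early genes, which respond within minutes to handling and other stimuli, were above 0 for 7 of 19 entries under the lung label and 10 to 13 in the other 4, with a median difference of -1.95. FOS was listed at 0 under the lung label and reached 220.5 FPKM under the limb label. EGR1, ATF3 and IER2 were also listed at 0 under the lung label, EGR1 and IER2 in 1 and 2 other libraries and ATF3 in 2. DUSP1, at 226 FPKM, JUNB, at 83.7 FPKM, and ZFP36, at 25.7 FPKM, were highest under the lung label. Markers of blood, vessel and immune cells were above 0 for 1 of 12 entries in any library, HBA of red cells under the lung label at 59.5 FPKM.

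The order of some libraries depended on scaling. By the median ratio of genes above 0 in all 5 libraries, the shift of the heart-labelled library from their mean was -0.14 on the log2 scale, and that of the lung-labelled library was 0.07. With that shift removed, HSPE1 stood at 1136 FPKM under the heart label and 1047 FPKM under the brain label, which reversed their order. With a total that leaves out mitochondrial and haemoglobin genes that order did not reverse, at 1116 and 1178 FPKM. After the median-ratio shift HSP90AB1 stood at 479.8 FPKM under the heart label and 440.5 FPKM under the limb label. The lung-labelled library still had the highest value of 8 of the 10 genes, and HSPA8 stood there at 1397 FPKM against 1065 under the skin label.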

How the data were processed

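Per the labels' protocols, cells were lysed and pre-amplified and libraries were made on a microfluidic chip. Per the submitters' processing notes, bcl2fastq, STAR and RSEM were used with the ARS-UCD1.2 build. Their versions, the annotation and the strand setting are not stated. The single deposited table, of 27607 genes in 5 libraries, holds values that were taken as FPKM by elimination, since no source names the unit. Read totals are unknown. Low values of the brain- and heart-labelled libraries stood in ratios of whole numbers up to 4, within 0.3%, for 275 of 3557 genes at the best relative depth and a median of 63 over all depths tried.

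Values were used as deposited with Python 3.11.15 and pandas 2.3.3. A pseudocount of 1, a minimum of 10 FPKM and a ratio of 4 defined calls, over the 8694 genes whose mean reached 1 FPKM. With no replicates no test was run. All 10 genes are named in every library. Of the other lists, entries past the limit and the most abundant entries are named in part. Genes and lists were chosen with earlier results of these data known, and the classes by mean level after the values were seen. No coordinates are given, since the reference table is of another build. Promoter sequences were not analysed here. As alternatives, the pseudocount, minimum, ratio, scaling, reference and libraries were varied.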

Additional observations from a re-analysis of the deposited data

How the results depend on the processing

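No paired analysis was possible because each label has 1 library and no result comes from a test. The count of genes at least 4-fold apart between the highest and lowest library was 5 and became 3 with a pseudocount of 10 and 9 with a ratio of 2. Leaving out each library in turn gave 3 (without the lung label) to 5. The count of gene and library combinations 4-fold above or below all other libraries was 2, and became 1 with a pseudocount of 10. With the mean of the other 4 as reference it was 11, where a gene can count in more than 1 library. The 19 pairwise calls became 6 with a pseudocount of 10 and 39 with a ratio of 2. A larger pseudocount shrinks the ratios of scarce genes, and a ratio of 2 is a looser limit. The median difference of the 10 genes in the lung-labelled library stayed between 1.23 and 1.40 under other pseudocounts, scalings and the median as reference, and 8 genes were highest there under each of the 3 scalings. Few reads may stand behind low values, which limits HSPA1A, HSPH1, DNAJB1 and most values of BAG3.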
